A study of Mus musculus with 9 samples.

Results

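A set of 10 genes of the corneal and ocular surface epithelium, *Krt12*, *Krt5*, *Krt14*, *Krt15*, *Krt6a*, *Krt4*, *Krt13*, *Krt19*, *Aldh3a1* and *Upk1b*, were followed through bulk RNA-Seq of mouse iris. They were picked out by gene symbol, from a list drawn up with earlier results of these data known, and all 10 of 10 were found among the 18349 genes listed. The 9 libraries formed 3 groups of 3. Sham VEGFR3 fl/fl irises came from mice whose cornea received PBS. Injured VEGFR3 fl/fl irises came from mice whose cornea was exposed at 6 weeks of age to 1 M sodium hydroxide (0.5 μL on filter paper, 60 seconds), a corneal alkali injury (CAI). Injured VEGFR3 iLECko irises came from CAI mice that carried floxed *VEGFR3* with a tamoxifen-inducible Cre under the *Prox1* promoter. This promoter is active in lymphatic endothelium, the intended target, but also in some other cell types. Tamoxifen at 80 mg/kg was given on days 13 to 17 after injury to iLECko mice and fl/fl littermates, and the strain background was C57BL/6J in every group. Irises were taken at 10 weeks of age, after the cornea, limbus, lens and ciliary body had been removed and the outer rim of the iris trimmed, and 3 irises were pooled for each library.

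The iris normally has no stratified surface epithelium. Its posterior face carries a pigmented bilayer derived from the optic cup, in which simple epithelial keratins are found, and its front is a stroma of fibroblasts, melanocytes, vessels and muscle. The cornea and conjunctiva in front of it are covered by stratified epithelium, in which a type II keratin and a type I keratin pair to form filaments. *Krt5* and *Krt14* are the basal pair, *Krt15* marks basal and limbal cells, *Krt12* is the type I keratin of the differentiated corneal epithelium, and *Krt4* with *Krt13* is the pair of non-keratinized mucosa such as conjunctiva. *Krt19* is found in conjunctival and limbal epithelium and in simple epithelia, and *Krt6a* is a type II keratin of activated epithelium. *Aldh3a1*, an aldehyde dehydrogenase, is an abundant soluble protein of the corneal epithelium and is also made by corneal stromal cells, and *Upk1b* encodes a uroplakin, a tetraspanin of surface membranes. In bulk tissue, fewer cells of a type and less RNA per cell cannot be told apart.

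Library totals lay between 16617187 and 18306359 estimated counts, so libraries were of like depth and counts of low genes could be read side by side. *Flt4*, which encodes VEGFR3, reached 478, 370 and 476 counts in the libraries labelled iLECko against 277, 353 and 400 in injured fl/fl and 282, 237 and 265 in Sham. The transcript was thus not lower in the libraries labelled iLECko, and its edgeR log2 fold change against injured fl/fl was 0.34 ± 0.15 (SE, adjusted p = 0.20). Whether the counted reads cover the deleted part is not known. The group is called iLECko by its label below. Sham replicates 1 and 2 stood apart from Sham replicate 3 in 7 of the 10 genes, and injured fl/fl replicate 1 stood apart in *Aldh3a1*. Results of the 10 genes against Sham are also given without these libraries, as are list counts that changed by over 1.5 times without the Sham pair.

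Most of the keratin genes lie in the keratin clusters. In RefSeq positions on GRCm38.p6, the assembly also known as mm10, which the submitters' processing notes name, *Krt12* (NCBI Gene ID 268482, chr11:99415664-99422593), *Krt13* (16663, chr11:100117327-100121566), *Krt15* (16665, chr11:100131759-100135949), *Krt19* (16669, chr11:100140810-100145926) and *Krt14* (16664, chr11:100203162-100207510) are in the type I cluster. *Krt6a* (16687, chr15:101689928-101694305), *Krt5* (110308, chr15:101707069-101712905) and *Krt4* (16682, chr15:101918535-101924735) are in the type II cluster. *Aldh3a1* (11670, chr11:61208510-61218418) and *Upk1b* (22268, chr16:38773182-38800203) lie outside both.

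The RefSeq promoter table held an entry for 4 of the 10 genes, and that of *Krt14* begins inside the gene and is not shown. The 250 bases before the start site of 3 keratins are printed 5′ to 3′ because these genes stand for the different patterns below, *Krt12* even across Sham, *Krt5* and *Krt13* high in part of it. All 3 genes are read from the minus strand, and the windows are chr11:99422260-99422509, chr15:101712906-101713155 and chr11:100121567-100121816. Capitals mark a TATAAA or a TGANTCA, the letters of an AP-1 motif.
*Krt12*: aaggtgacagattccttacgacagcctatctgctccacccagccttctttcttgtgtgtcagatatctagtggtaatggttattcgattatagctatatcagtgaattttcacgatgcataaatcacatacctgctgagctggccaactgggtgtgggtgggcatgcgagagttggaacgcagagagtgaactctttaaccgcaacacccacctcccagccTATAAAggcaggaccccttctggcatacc
*Krt5*: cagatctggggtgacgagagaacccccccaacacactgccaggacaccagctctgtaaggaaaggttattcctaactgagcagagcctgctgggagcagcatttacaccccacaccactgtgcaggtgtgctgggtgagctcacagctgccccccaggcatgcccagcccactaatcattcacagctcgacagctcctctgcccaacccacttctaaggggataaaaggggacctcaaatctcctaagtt
*Krt13*: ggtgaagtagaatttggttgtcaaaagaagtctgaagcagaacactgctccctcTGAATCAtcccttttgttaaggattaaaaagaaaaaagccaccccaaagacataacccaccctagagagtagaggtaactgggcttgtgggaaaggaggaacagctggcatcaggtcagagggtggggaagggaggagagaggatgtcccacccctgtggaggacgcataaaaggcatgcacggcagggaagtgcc
The letters TATAAA stood at positions -29 to -24 from the start of *Krt12* and in no other of the 4 genes, and 13.6% of 32851 RefSeq promoter windows (250 bases before to 50 after a start) held them on either strand. TGANTCA stood at positions -196 to -190 from this start of *Krt13*, and 7.81% of all windows held it. From another listed start of *Krt13*, inside the gene and not shown, it stood at -183 to -177 and at -34 to -28. The AP-2 letters GCCNNNGGC (16.6% of all windows) and the GC box letters GGGCGG (35.7%) were in 0 of the 4 genes. Both strands were searched, and the AP-1 and AP-2 letters read the same on each. A match describes letters only.

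*Krt12* was low and even in Sham and lower in every injured library. Its counts were 31, 31 and 25 in Sham replicates 1 to 3, 3, 10 and 6 in injured fl/fl and 7, 3 and 9 in iLECko. All 3 Sham libraries were above all 6 injured libraries, and the injured groups overlapped. The mean was 1.62 ± 0.19 CPM (CPM, counts scaled to a common library size with edgeR's TMM factors; SD, n = 3) in Sham, 0.371 ± 0.203 in injured fl/fl and 0.366 ± 0.178 in iLECko. The edgeR log2 fold change was -2.11 ± 0.46 (SE, adjusted p = 0.0036) in injured fl/fl against Sham and -2.13 in iLECko against Sham (adjusted p = 0.0039), 2 comparisons that share the Sham libraries. Between the injured groups it was -0.03 ± 0.52 (adjusted p = 0.99). *Krt12* stayed lower when any 1 library was left out, with adjusted p from 0.0031 to 0.0150 in injured fl/fl. With Sham replicate 3 as the only Sham library it was -1.89, with adjusted p = 0.087, where the lone library is assumed to vary like the other groups.

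The basal keratins *Krt5*, *Krt15* and *Krt14* split the Sham group. *Krt5* had 328 and 148 counts in Sham replicates 1 and 2 and 7 in Sham replicate 3, against 3, 11 and 12 in injured fl/fl and 10, 10 and 15 in iLECko. Sham replicate 3 therefore lay among the injured libraries and the groups overlapped. *Krt15* had 379, 175 and 12 counts in Sham, 4, 12 and 22 in injured fl/fl and 5, 8 and 2 in iLECko. *Krt14* had 24, 27 and 0 counts in Sham, 0, 3 and 6 in injured fl/fl and 10, 10 and 6 in iLECko, and with 3 counts as the floor for the 0 its level in Sham replicates 1 and 2 was at least 8.44-fold that in Sham replicate 3. The fold of Sham replicates 1 and 2 over Sham replicate 3 was 33.8 for *Krt5* (95% interval 16.3 to 84.4) and 22.9 for *Krt15* (13.0 to 44.6), and these intervals cover counting error only.

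The pair of mucosal keratins and the remaining keratins followed the same division. *Krt4* had 194, 172 and 4 counts in Sham, 12, 12 and 19 in injured fl/fl and 0, 3 and 2 in iLECko. *Krt13* had 276, 132 and 12 counts in Sham, 6, 20 and 45 in injured fl/fl and 7, 6 and 4 in iLECko. Sham replicate 3 had fewer *Krt4* counts than any injured fl/fl library, and its *Krt13* count lay within their range. *Krt6a* had 150, 68 and 3 counts in Sham, 1, 13 and 20 in injured fl/fl and 9, 8 and 7 in iLECko. *Krt19* had 50, 55 and 1 counts in Sham, 3, 11 and 5 in injured fl/fl and 5, 5 and 5 in iLECko. For both genes Sham replicate 3 was near or under the lowest injured library. Of the 50-base stretches of *Krt6a* transcripts, 45.7% also occur in other genes, 40.2% in *Krt6b*, so its counts could be split with that gene, and for *Krt14* 13.9% occur elsewhere, mostly in *Krt16*. *Krt12*, *Krt4*, *Krt13*, *Krt19*, *Aldh3a1* and *Upk1b* shared 0 such stretches with other genes.

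**Figure D1:**
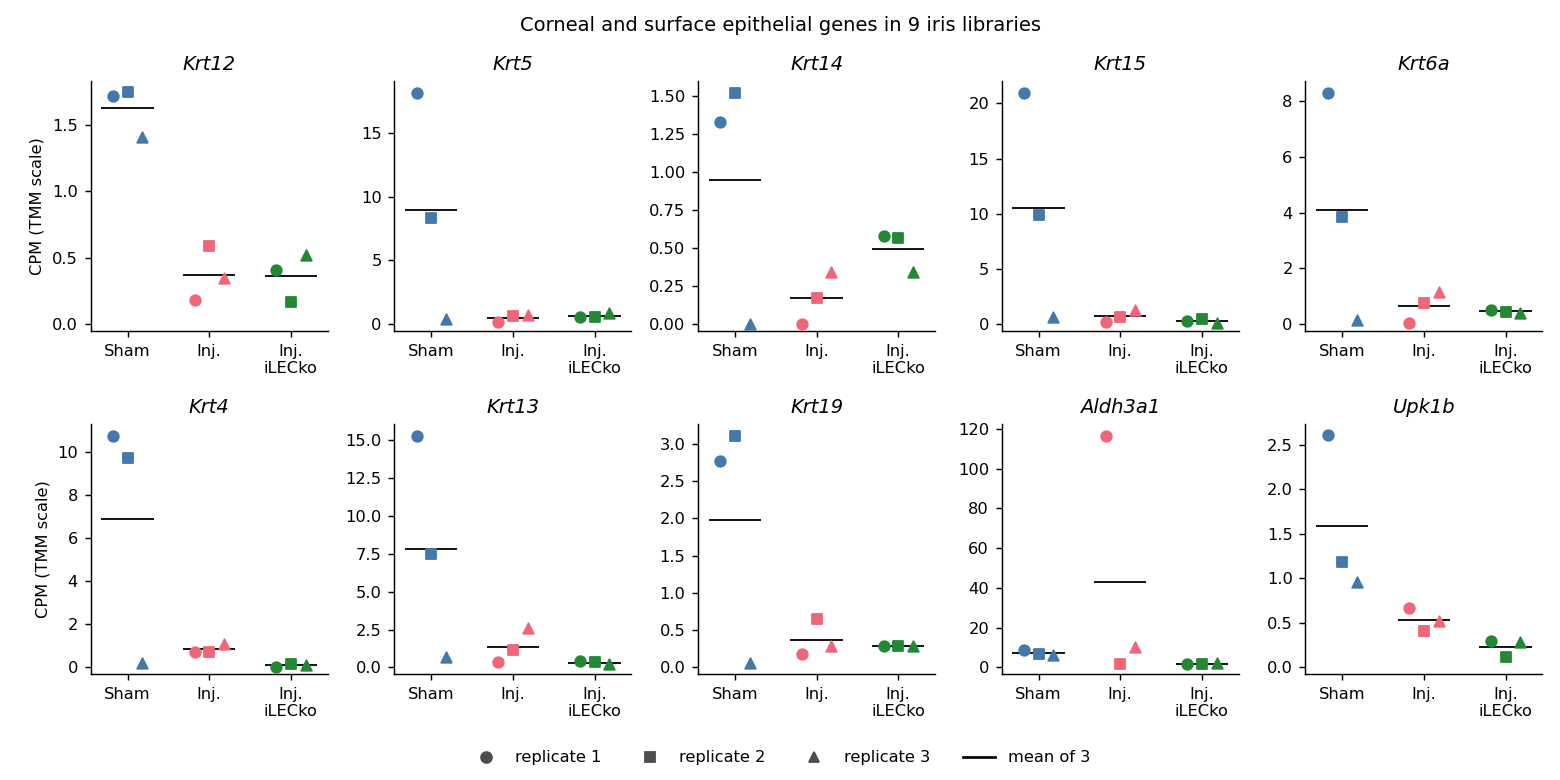
CPM on the TMM scale (vertical axis, from 0, one scale per gene) of the 10 genes in 9 libraries, by group, with a marker shape for each replicate number and a line at the mean of 3; replicate numbers do not pair libraries between groups. *Krt5*, *Krt14*, *Krt15*, *Krt6a*, *Krt4*, *Krt13* and *Krt19* were high in Sham replicates 1 and 2 (circle, square) and low in Sham replicate 3 (triangle), *Krt12* was even in Sham, and *Aldh3a1* was high in injured fl/fl replicate 1.

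Summed over these 7 keratins, the level was 77.6 and 43.9 CPM in Sham replicates 1 and 2 and 2.196 CPM in Sham replicate 3. It was 1.76, 4.80 and 7.41 CPM in the injured fl/fl libraries and 2.69, 2.83 and 2.36 CPM in the iLECko libraries. Sham replicate 3 was thus within the range of the injured libraries for the sum. Some other genes, picked out for this pattern, shared the step. *Krt6b* had 215, 74 and 8 counts in the Sham libraries, *Muc4*, a membrane mucin of the ocular surface, had 137, 42 and 1, *Calml3*, a calmodulin-like protein of stratified epithelium, had 90, 42 and 9, and *Krt7* had 43, 25 and 3. Other genes of the same lists did not share it. *Muc1* had 67, 50 and 64 counts in Sham, and *Tgm1*, the transglutaminase of the cornified envelope, had 4419, 4801 and 4073. The cornified envelope list summed to 271, 293 and 250 CPM in the Sham libraries, and the list of surface epithelial regulators to 76.8, 73.9 and 85.5 CPM. *Trp63*, the p63 factor of basal epithelial cells, had 16 counts in each Sham library. *Slurp1*, a secreted protein of the corneal epithelium, had 1, 3 and 0 counts in Sham and at most 1 in the injured libraries. Whether tissue carried over from the cornea or conjunctiva contributed to these counts was not tested.

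Per kilobase of the longest transcript, which allows levels of different genes to be compared, the mean Sham level was highest for *Krt15* at 6.19 ± 5.98 CPM per kb (SD, n = 3). *Krt13* followed at 4.72, *Aldh3a1* at 4.17 ± 0.78, *Krt5* at 4.08 and *Krt4* at 3.23, then *Krt6a* at 1.73 and *Krt19* at 1.25. *Krt12* at 0.878 ± 0.102, *Upk1b* at 0.835 and *Krt14* at 0.560 were lowest. Neighbours in this order did not differ beyond the spread between Sham libraries, since the SD of the split keratins was close to their mean. The order also differed between Sham libraries. In Sham replicate 1 *Krt12* was at 0.927 CPM per kb, under *Krt15* at 12.3, *Krt13* at 9.24, *Krt5* at 8.27 and *Krt4* at 5.04. In Sham replicate 3 *Krt12*, at 0.760 CPM per kb, was above *Krt13* at 0.409, *Krt15* at 0.398, *Krt5* at 0.179 and *Krt4* at 0.106.

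*Upk1b* was intermediate between these patterns. It had 47, 21 and 17 counts in Sham, 11, 7 and 9 in injured fl/fl and 5, 2 and 5 in iLECko. The 3 groups did not overlap, with Sham highest and iLECko lowest, and Sham replicates 1 and 2 together were 1.99-fold Sham replicate 3 (95% counting interval 1.15 to 3.61). The edgeR log2 fold change was -1.56 ± 0.48 (SE, adjusted p = 0.018) in injured fl/fl against Sham, -2.74 in iLECko against Sham (adjusted p = 0.0019) and -1.18 between the injured groups (adjusted p = 0.23). Without Sham replicate 1 the first was -1.01 (adjusted p = 0.096), without injured fl/fl replicate 2 it was -1.41 (adjusted p = 0.060) and without injured fl/fl replicate 3 -1.54 (adjusted p = 0.051).

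*Aldh3a1* did not follow the keratins. Its counts were 158, 117 and 111 in Sham, 1921, 33 and 178 in injured fl/fl and 29, 31 and 36 in iLECko. Injured fl/fl replicate 1 was far above every other library, whereas the keratins of that library had 0 to 12 counts each. The 3 iLECko libraries were close together and all under the lowest Sham library, and they overlapped with injured fl/fl. The mean was 7.20 ± 1.35 CPM (SD, n = 3) in Sham, 42.9 ± 63.9 in injured fl/fl and 1.84 ± 0.20 in iLECko. In edgeR's test *Aldh3a1* was not called in injured fl/fl against Sham (log2 fold change 2.57, adjusted p = 0.069), whereas DESeq2 called it higher. Without injured fl/fl replicate 1 the edgeR value was -0.25 (adjusted p = 0.71).

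In iLECko against injured fl/fl, *Aldh3a1* had a log2 fold change of -4.54 ± 1.26 (SE, adjusted p = 0.086), which became -1.72 without injured fl/fl replicate 1 (adjusted p = 0.16) and -5.10 without injured fl/fl replicate 2 (adjusted p = 0.036). By DESeq2's Wald test its adjusted p was 0.0037, and over the alternatives it ranged from 0.0037 to 0.32. In iLECko against Sham it was -1.96 ± 1.25 (adjusted p = 0.21), and the call depended on the libraries in the fit. With only the 6 libraries compared the adjusted p was 8.6e-05, and without injured fl/fl replicate 1 in the fit it was 0.0094. Other genes were high in the same library. In injured fl/fl replicate 1, *Angptl7*, a secreted factor of corneal stroma and trabecular meshwork, had 1442 counts against 14 and 17 in the other injured fl/fl libraries, and *Lum*, the keratocyte proteoglycan lumican, had 31780 against 6521 and 11067. *Dcn*, decorin, had 79389 against 17541 and 33065. *Ptgds*, of the same keratocyte list, was lowest in this library, with 47751 counts against 57802 and 74994. *Kera*, the defining keratocyte proteoglycan keratocan, had 3 counts there and 0 or 1 in every other library. Whether RNA of another tissue contributed to the *Aldh3a1* counts of this library was not tested.

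Genes with the most similar pattern over the 9 libraries were sought by the root mean square difference of centred log2(CPM + 0.5) among 14216 genes. The nearest to *Krt5* were *Krt6b* (0.635), *Calml3* (0.721) and *Muc4* (0.851), and to *Krt19* they were *Calml3* (0.561), *Zkscan2* (0.609) and *Tubb4a* (0.610). For *Aldh3a1* they were *Myoc* (0.518), the gene for myocilin, with 2682 counts in injured fl/fl replicate 1 and 67 to 379 elsewhere, *Ptgis* (0.646) and *Cilp2* (0.668). For *Krt12* the nearest were *Mtfp1* (0.119), *Lmod1* (0.126), a smooth muscle actin regulator, and *Itga9* (0.147). *Lmod1* had 964 to 1171 counts in Sham and 292 to 499 in the injured libraries. Both injured groups had a mean *Krt12* level (0.371 and 0.366 CPM) under the 0.5 CPM added, which compresses its fall on this scale. The small distances from *Krt12* thus do not show that these genes fell by a like amount. These are descriptions over 9 libraries that share their depth and grouping.

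**Figure D2:**
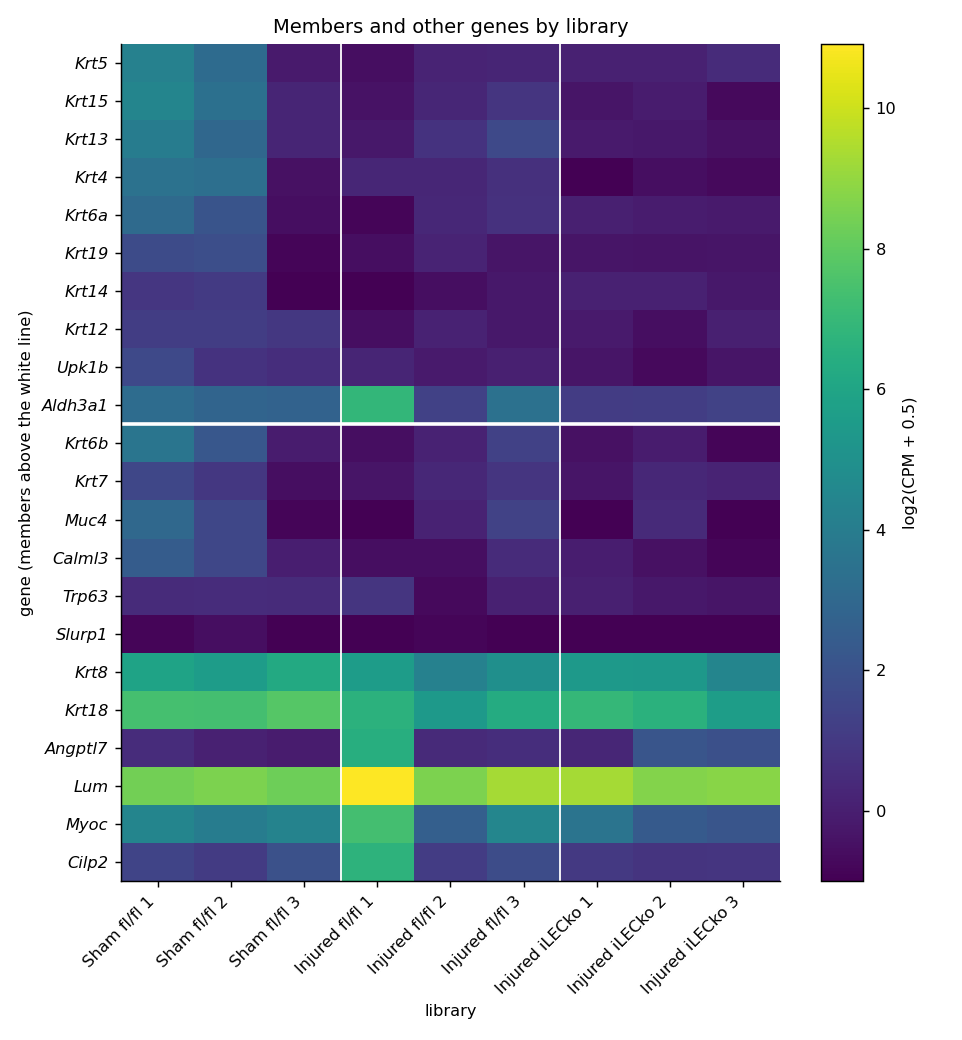
Colour gives log2(CPM + 0.5) of the 10 genes (above the white line) and of 12 other genes named in the text (below it) in each of 9 libraries, in columns by group. *Krt6b*, *Krt7*, *Muc4* and *Calml3* shared the step between Sham replicates 1 and 2 and Sham replicate 3, and *Angptl7*, *Lum*, *Myoc* and *Cilp2* shared the high value of *Aldh3a1* in injured fl/fl replicate 1.

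The first comparison of the design asks what CAI did to the iris. A gene was called at a Benjamini-Hochberg adjusted p under 0.05 in edgeR's quasi-likelihood test where its groups also differed by over 1.5-fold. A filter on low counts left 9 of the 10 genes for testing and *Krt14* was not tested. Several passed it through the Sham libraries in the main (*Krt12* and *Upk1b* reached the cutoff in 3 Sham, 1 injured fl/fl and 0 iLECko libraries), so calls among tested genes tend toward Sham. In injured fl/fl against Sham, 6 were called lower and 0 higher. Among all 15010 genes tested, 17.5% were called lower and 22.1% higher. The log2 fold changes with adjusted p were -4.13 ± 1.07 (SE, 0.0086) for *Krt5*, -3.82 ± 1.03 (0.0104) for *Krt15*, -3.02 ± 1.00 (0.026) for *Krt4* and -2.50 ± 0.93 (0.043) for *Krt13*, beside *Krt12* and *Upk1b* above. *Krt6a* at -2.62 (adjusted p = 0.059) and *Krt19* at -2.39 (adjusted p = 0.055) were not called, and DESeq2 called both (adjusted p = 0.024 and 0.034). The median over the 9 tested genes was -2.50, against 0.010 over all genes. Only *Krt12* and *Upk1b* had groups that did not overlap, 2 of 10, and 32.4% of all genes tested lay lower without overlap.

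The calls of *Krt5*, *Krt15*, *Krt4* and *Krt13* rested on Sham replicates 1 and 2, whereas the fold change of *Krt12* did not. With both left out, Sham replicate 3 was the only Sham library, so a missing call could also reflect lower power. Only effect sizes are therefore given here for that fit. In injured fl/fl the log2 fold change turned to 0.36 for *Krt5*, 0.13 for *Krt15* and 1.87 for *Krt4*. It turned to 1.02 for *Krt13*, 1.93 for *Krt6a* and 2.58 for *Krt19*. The values of *Krt12* at -1.89 and *Upk1b* at -0.83 kept their sign. With Sham replicate 3 left out instead, *Krt6a* (adjusted p = 0.0072) and *Krt19* (adjusted p = 0.0012) were also called lower, and *Krt14*, then testable, had -2.97 (adjusted p = 0.011). *Krt4* lost its call without Sham replicate 1 (adjusted p = 0.085), Sham replicate 2 (0.074) or injured fl/fl replicate 1 (0.058), 2 (0.067) or 3 (0.054), and *Krt13* without any 1 library other than Sham replicate 3 and injured fl/fl replicate 3, with adjusted p from 0.0585 to 0.20. *Krt5*, *Krt15* and *Krt12* kept the call whichever 1 library was left out.

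**Figure D3:**
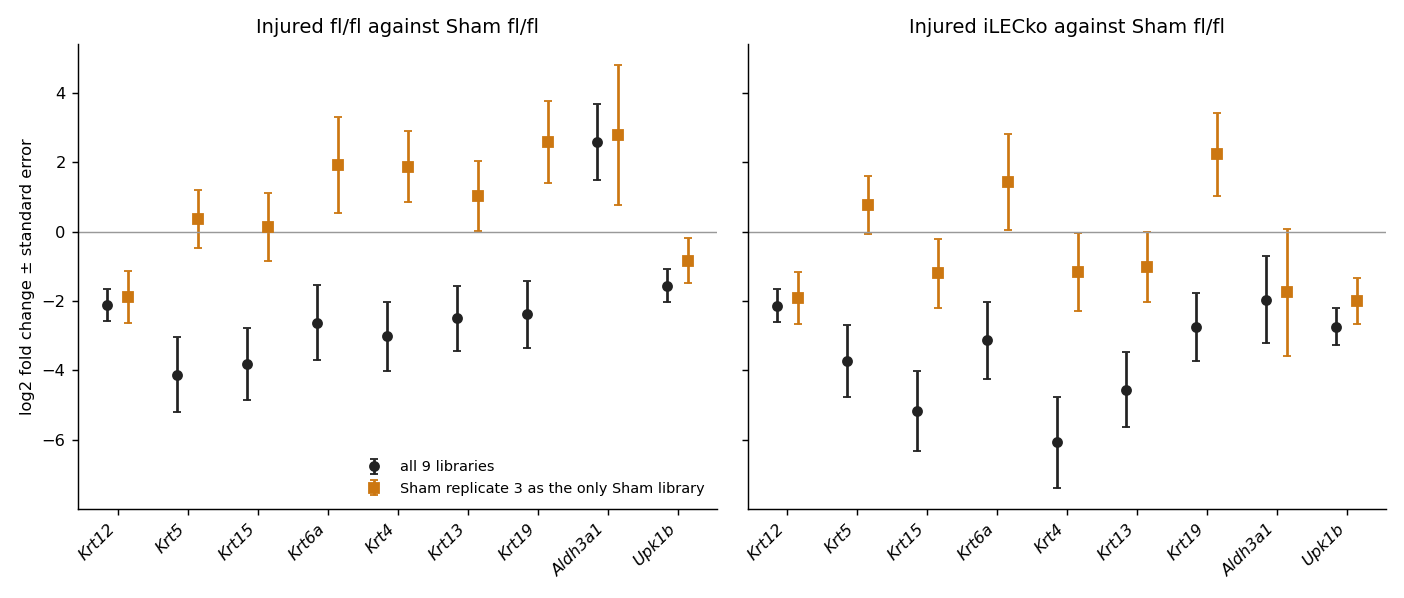
Log2 fold change with its standard error (vertical axis) of the 9 tested genes in injured fl/fl and in iLECko against Sham, with all 9 libraries (black circles) and with Sham replicate 3 as the only Sham library (orange squares). *Krt12* moved little, from -2.11 to -1.89 in injured fl/fl, whereas *Krt5* went from -4.13 to 0.36 and *Krt4* from -3.02 to 1.87.

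The second comparison was designed to ask what the intended deletion of *VEGFR3* in lymphatic endothelium changes in the injured iris. In these data the deletion rests on the group labels, since *Flt4* was not lower in iLECko. In iLECko against injured fl/fl, 0 of the 9 genes tested were called, and 1.04% of all genes were. By unadjusted p under 0.05 only *Aldh3a1* passed, 1 of 9, against 24.5% of all genes, and DESeq2 called 1, also *Aldh3a1*. *Krt4* and *Upk1b* lay lower in iLECko with no overlap (14.3% of all genes did) and *Krt14* lay higher with no overlap (12.4%), by a narrow margin, since the nearest libraries of both groups had 6 counts. The log2 fold change of *Krt4* was -3.04 (adjusted p = 0.22) on counts of 0 to 19. For *Krt13* it was -2.06 (adjusted p = 0.28), for *Krt15* -1.34, for *Krt6a* -0.51, for *Krt19* -0.36 and for *Krt5* 0.40. At these counts only large differences would be detectable.

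In iLECko against Sham, which shares the Sham libraries with the first comparison, 8 of the 9 tested genes were called lower, against 15% of all genes. *Krt12*, *Krt15*, *Krt6a*, *Krt4*, *Krt13*, *Krt19* and *Upk1b* reached the filter cutoff in 0 iLECko libraries, so they passed it only through the other groups. The filter thus favoured lower calls of these genes, and 8 of 9 is not an even comparison with 15%. The log2 fold changes were -6.07 for *Krt4* (adjusted p = 0.0037), -5.16 for *Krt15* (0.0045), -4.55 for *Krt13* (0.0065), -3.73 for *Krt5* (0.013), -3.14 for *Krt6a* (0.038) and -2.75 for *Krt19* (0.040) by edgeR's test. *Krt4* had 370 counts in Sham and 5 in iLECko in total, a ratio of 72.1 (95% counting interval 30.6 to 223), and all but 4 of the Sham counts came from Sham replicates 1 and 2. Of the 10 genes, 6 (*Krt12*, *Krt15*, *Krt4*, *Krt13*, *Aldh3a1* and *Upk1b*) lay lower without overlap, and 33.2% of all genes did. Without Sham replicates 1 and 2, *Krt4* stood at -1.17 (adjusted p = 0.47), *Krt15* to -1.21 (0.40) and *Krt13* to -1.02 (0.48) by edgeR's test, and *Upk1b* was at -2.01 (0.059). *Krt5* turned to 0.77, *Krt6a* to 1.42 and *Krt19* to 2.22, and *Krt12* stood at -1.92 (adjusted p = 0.097). Without Sham replicate 1 alone, *Krt5* was not called (adjusted p = 0.056) and neither were *Krt6a* (0.16) or *Krt19* (0.11). *Krt6a* and *Krt19* also lost the call without Sham replicate 2 (0.070 and 0.12) or without any 1 iLECko library (0.090 to 0.11), and *Krt19* without injured fl/fl replicate 3 (0.052).

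Other genes of the epithelium, taken from lists of stratified and simple epithelial genes, moved in their own ways in injured fl/fl against Sham. Simple epithelial keratins are those of the iris pigment epithelium among other tissues, and *Krt8* and *Krt18*, which pair, were called lower among 3 tested, with *Krt8* at 1081, 847 and 1346 counts in Sham and 774, 317 and 531 in injured fl/fl. *Krt18* had 2994, 2910 and 3876 counts in Sham and 1656, 721 and 1382 in injured fl/fl, with a log2 fold change of -1.30 (adjusted p = 0.013). Unlike the stratified keratins, both were highest in Sham replicate 3 among the 9 libraries. Without Sham replicates 1 and 2 neither was called by edgeR, and 2 of 4 simple epithelial keratins tested then had an unadjusted p under 0.05. Over all 37 keratin genes listed, which include those of the 10 genes, 17 were tested. Of these, 11 were called lower and 1, *Krt83*, higher. Among keratins outside the 10 genes, 10 were tested, with 6 called lower, 1 higher and a median log2 fold change of -1.20. *Krt24*, a type I keratin, had 46, 50 and 50 counts in Sham and 8, 5 and 9 in injured fl/fl (-2.64, adjusted p = 0.00055). Like *Krt12* it was even in Sham and lower with no overlap. Without Sham replicates 1 and 2, 20 keratins were tested, with 2 called lower and 2 higher.

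Of 11 tested genes of the stratified desmosome, the plaque and cadherins that join epithelial cells, 7 were called lower and 0 higher, with *Dsc2* at -1.16 (adjusted p = 0.0070). Desmoplakin, *Dsp*, had 48, 29 and 6 counts in Sham against 30, 63 and 53 in injured fl/fl (0.88, adjusted p = 0.20), so Sham replicate 3 was lowest for it. Summed over the list, Sham replicate 3 was not apart, at 242 CPM against 259 and 240 CPM, and 4 of 11 were called lower and 1 higher without Sham replicates 1 and 2. Of 8 tested genes of the hemidesmosome and epithelial basement membrane, which many cells besides epithelium use, 5 were called higher and 1 lower. *Itgb4*, the hemidesmosome integrin, had a log2 fold change of 1.24 (adjusted p = 8.0e-05), and *Lama3* one of -1.78 (adjusted p = 6.0e-05). The same counts, 5 and 1, were found without Sham replicates 1 and 2.

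Of 9 tested regulators of surface epithelium, 5 were called lower and 0 higher, with *Klf5* at -1.24 (adjusted p = 0.0047), and 3 of 10 were called lower without Sham replicates 1 and 2. *Trp63* had 21, 2 and 10 counts in injured fl/fl (-0.46, adjusted p = 0.54). Of 6 tested genes of the cornified envelope, the cross-linked shell of stratified cells, 4 were called lower, among them *Calml3* and *Krt10*, and 1 of 8 without Sham replicates 1 and 2. Of 7 tested adhesion and surface proteins 2 were called higher and 3 lower, with *Cdh1*, E-cadherin, at -1.83 (adjusted p = 2.3e-05). Of 4 uroplakins tested 2 were called lower, *Upk1b* and *Upk3bl*. Without Sham replicates 1 and 2 edgeR called 0 of 4, with 0 at an unadjusted p under 0.05, and without injured fl/fl replicate 1 it called 3 lower. Of 2 mucin genes tested *Muc1*, a membrane mucin, was called higher at 1.42 (adjusted p = 0.00020), while *Muc4* was not called (-1.90, adjusted p = 0.29). *Muc5ac*, the goblet cell mucin, had 0 counts in all Sham libraries, 1, 1 and 35 in injured fl/fl and 0, 12 and 0 in iLECko. Of the wound keratins, *Krt6a* and *Krt6b* were tested and not called by edgeR, with an unadjusted p under 0.05 for 2 of 2, and DESeq2 called both lower.

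Of 3 other genes of corneal epithelium that were tested, *Aqp5*, a water channel of cornea and glands, was called higher at 3.70 (adjusted p = 0.020) on counts of 21, 3 and 0 in Sham and 22, 75 and 207 in injured fl/fl. Injured fl/fl replicate 1, at 22 counts, was level with Sham replicate 1. Without Sham replicates 1 and 2 *Aqp5* was not called in injured fl/fl. In iLECko it had 562, 123 and 163 counts, which overlapped with injured fl/fl (1.48, adjusted p = 0.33). *Pax6*, the eye field factor that iris and cornea share, was called lower at -1.82 (adjusted p = 7.1e-07), and *Tkt* at -0.81 (adjusted p = 4.0e-05).

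Markers of neighbouring and resident cells moved with injury as well. Of 4 keratocyte genes tested 2 were called higher, *Lum* and *Angptl7*, and 1 lower, and without injured fl/fl replicate 1 these were 0 and 2. Without Sham replicates 1 and 2 they were 0 and 1. Of 4 corneal endothelium genes 2 were called higher and 2 lower. The means of the collagens *Col8a1* and *Col8a2* rose from 69.9 and 171 CPM in Sham to 379 and 775 CPM in injured fl/fl. Those of *Slc4a11* and *Slc4a4* fell from 32.8 and 223 CPM to 6.39 and 38.3 CPM. The sum of the list, which rose through the collagens only, ranged from 421 to 571 CPM in Sham. It ranged from 799 to 1684 CPM in injured fl/fl, highest in replicate 1. All 7 iris pigment cell genes and 4 of 6 smooth muscle genes were called lower. Of 3 lens genes tested 1 was called higher and 1 lower, and without Sham replicates 1 and 2 it was 1 higher and 0 lower of 6. Of 2 ciliary body genes 0 were called by edgeR or DESeq2 with all libraries, with 0 at an unadjusted p under 0.05. Their sum was 1.80 to 2.49 CPM in Sham and 1.44 to 3.64 CPM in injured fl/fl, the highest in replicate 1, where *Atp6v1c2* had 27 counts against 3 and 3. Without that library 1 of the 2 was called lower. In iLECko against injured fl/fl edgeR called 0 of the 81 tested genes of the 16 lists, 21 had an unadjusted p under 0.05, and DESeq2 called 5 (*Dsg1a*, *Dsg1b*, *Muc1*, *Perp* and *Slc4a4*). The part of these other cell types in the results on the 10 genes was not tested.

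**Figure D4:**
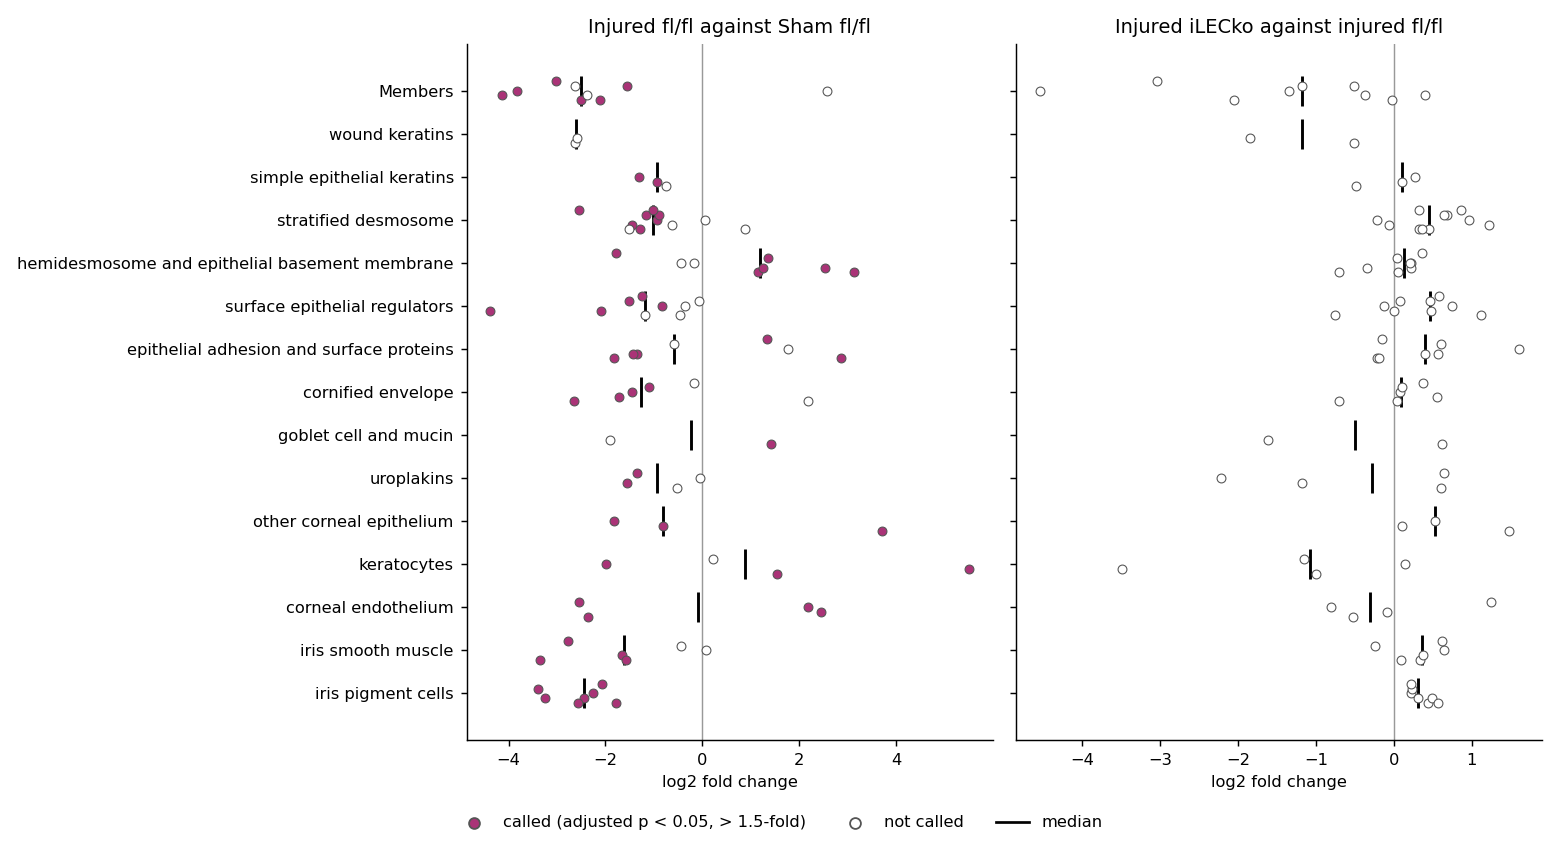
Log2 fold change (horizontal axis) of each tested gene, by list, in injured fl/fl against Sham and in iLECko against injured fl/fl, with filled points for called genes, open points for the rest and a line at the median. In the first comparison 6 of the 9 tested surface epithelial genes (top row) were called lower, with a median of -2.50, and in the second edgeR called 0 genes of any list.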

How the data were processed

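Iris RNA was sequenced in 9 libraries, 3 per group, as single-end reads. Estimated counts per gene were deposited by the authors without normalization, and 9.83% to 10.3% of values in a library were not whole. Per the submitters' processing notes, HISAT2 2.0.4, Bowtie2 2.2.5 and DESeq2 1.4.5 were used with build mm10, and the annotation and the counter are not given in the sources used here. Whether counting used strand is not stated. A combined table deposited with identical values was not used.

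Groups were taken from titles and descriptions, since for iLECko replicates 2 and 3 the genotype tag carried a different VEGFR number. Counts were rounded, filtered by filterByExpr (15010 of 18349 genes kept) and normalized by TMM (factors 0.90 to 1.09), and all 9 libraries were fitted by edgeR 4.0.16 in R 4.3.3, and p-values were adjusted by Benjamini-Hochberg across every tested gene. DESeq2 1.42.0 and limma 3.58.1 served alternatives. Replicates are pools of separate irises and differed by more than counting noise (chi-square per degree of freedom 5.30 to 79.3). Replicate numbers did not pair libraries. The code was tested on simulated data. Lengths and shared 50-base stretches came from GENCODE M21, and promoters from RefSeq. Named genes were the 10 genes themselves, the 3 genes nearest in pattern to *Krt12*, *Krt5*, *Krt19* and *Aldh3a1*, and examples from the lists. The 10 genes and the 16 lists were chosen with earlier results of these data known. Leaving out Sham replicates 1 and 2 together, limma-voom with sample weights and leaving injured fl/fl replicate 1 out of the list counts were added after the data were seen. The values of 1 gene of the lists are not reported here.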

Additional observations from a re-analysis of the deposited data

How the results depend on the processing

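Depth limits the low genes, since *Krt12* rests on 3 to 10 counts per injured library. For the 6 genes called lower in injured fl/fl against Sham, the count was 3 with a replicate block and 1 by limma-voom with sample weights. It was 3 to 9 when 1 library was left out. For the 8 called lower in iLECko against Sham these counts were 5, 2 and 5 to 9. By DESeq2 all 9 tested genes were called in the first comparison, *Aldh3a1* alone in the higher direction, and 8 in iLECko against Sham. DESeq2 called 1 gene higher in the first comparison and 1 lower in iLECko against injured fl/fl, both *Aldh3a1*, and leaving out 1 library gave 0 to 1 in each. Called genes without a fold threshold numbered 9000 of 15010 in the first comparison and 8175 in iLECko against Sham. The 156 genes called between the injured groups became 630 by DESeq2, 24 with a replicate block, 4 without Sham replicates 1 and 2, 0 with only the 6 libraries compared (the count at unadjusted p under 0.05 was 3674 with all 9) and 0 to 281 when 1 library was left out. Replicate numbers did not deviate together (correlations -0.35 to 0.18), so the block shares only a number. Signs turned in injured fl/fl against Sham without Sham replicates 1 and 2, to 0.36 (*Krt5*), 0.13 (*Krt15*), 1.87 (*Krt4*), 1.02 (*Krt13*), 1.93 (*Krt6a*) and 2.58 (*Krt19*), and in iLECko against Sham to 0.77 (*Krt5*), 1.42 (*Krt6a*) and 2.22 (*Krt19*). With 1 library left out, *Aldh3a1* ranged from -0.25 (without injured fl/fl replicate 1) to 3.14 in the first comparison. Between the injured groups *Krt6a* ranged from -1.04 to 0.15, *Krt19* from -0.68 to 0.28 and *Krt12* from -0.36 to 0.45, and *Krt12* was 0.024 by library size only. Of 504 values of single genes under an alternative, 424 kept direction and side of the threshold, 13 passed it, 52 no longer passed it and 15 turned sign. The cause was not tested. Library size alone moved the median of all genes to -0.16 in injured fl/fl against Sham and to -0.12 in iLECko against Sham. No scaling turned the sign of a tested gene in either of these.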
